A study of Mus musculus with 9 samples.

Results

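Transcripts of mouse oocytes supplemented with nicotinamide mononucleotide (NMN) were compared with those of unsupplemented oocytes, young and aged together. All 9 libraries of the series entered: 3 of the NMN group set against 6 unsupplemented ones (3 young, 3 aged), and all 22526 genes of the deposited table. The cells were oocytes of the outbred mouse strain ICR at metaphase II, the stage at which an egg waits for fertilisation, and the libraries were made by Smart-seq2, which copies polyadenylated RNA into full-length cDNA and amplifies it. The labels call the groups young, aged and NMN supplementation. They do not state the ages, the age of the NMN group, the dose or route of NMN, the number of oocytes per library or whether libraries came from separate animals, and the p-values cover library-to-library spread alone, part of which may be technical. Values are FPKM, sequenced fragments scaled to transcript length and library size.

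NMN is an intermediate of NAD synthesis. In the salvage pathway the enzyme Nampt makes NMN from nicotinamide, and the Nmnat enzymes join NMN to an adenylate group to give NAD. NAD carries electrons in respiration and is consumed by sirtuins and poly(ADP-ribose) polymerases, and a fall of NAD with maternal age has been described in oocytes. A fully grown oocyte transcribes almost nothing, so its mRNA levels reflect earlier synthesis, storage and decay.

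A gene that returns from an aged level to the young level differs from the aged libraries and not from the young ones. A gene particular to the NMN group differs from both. The groups were therefore compared in 3 ways: the NMN mean against the mean of the other 2 group means, the NMN mean against each of these groups with both differences required, and a count of genes whose 3 NMN libraries all lay above, or all below, the other 6. Of the 22526 genes, 9168 reached 1 FPKM in at least 3 libraries and were tested with limma on log2(FPKM + 1), on which scale all log2 differences are given. A call means a Benjamini-Hochberg adjusted p under 0.05 over these 9168 genes.

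Few transcripts separated the NMN oocytes from both other groups. Against the pooled unsupplemented libraries 5 genes were called (0.0545% of those tested). Plek, pleckstrin, fell (0.0109% of tested genes were called lower), and Vamp3, a protein of vesicle fusion, rose. The non-coding genes H2-T-ps, Gm47871 and Gm16380 were also called higher (0.0436% were called higher in all), but these 3 passed the filter on low values only through the NMN libraries, and without the filter none of them was called (adjusted p = 0.103 for each). With the replicate number as a block, none of the 5 genes was called by limma, with 598 genes at an unadjusted p under 0.05. Plek was also the 1 gene called against both groups at once (0.0109%). Without adjustment, 649 genes had p under 0.05 (7.08%), 332 higher (3.62%) and 317 lower (3.46%), and 131 genes (1.43%) had p under 0.05 against both groups.

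Of the called genes, H2-T-ps, Gm47871 and Gm16380 are outside the rule by which genes were named, and were chosen after their values were seen. Gm16380 is annotated as a processed pseudogene, a copy of a spliced mRNA, on chromosome 9, and Gm47871 as a long intergenic non-coding RNA on chromosome 12. The first 240 bases of each annotated transcript are printed because the first is in large part a copy of another gene and the second is not. Both were read from the GENCODE M21 transcripts, 5′ to 3′ on the strand of the gene. Capitals in Gm16380 mark the stretches that lie in runs of 50 or more bases identical to transcripts of Siva1, an apoptosis regulator (215 of the 478 bases of the transcript, 45.0%, and 150 of those printed). Gm47871 (424 bases) shared no run of 50 bases with a transcript of another gene and has no capitals.
Gm16380: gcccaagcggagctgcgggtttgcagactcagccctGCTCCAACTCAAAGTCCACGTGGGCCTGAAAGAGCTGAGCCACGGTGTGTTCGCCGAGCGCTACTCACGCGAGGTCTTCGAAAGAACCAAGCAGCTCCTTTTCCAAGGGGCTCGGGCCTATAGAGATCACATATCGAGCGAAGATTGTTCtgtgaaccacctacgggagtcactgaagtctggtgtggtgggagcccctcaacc
Gm47871: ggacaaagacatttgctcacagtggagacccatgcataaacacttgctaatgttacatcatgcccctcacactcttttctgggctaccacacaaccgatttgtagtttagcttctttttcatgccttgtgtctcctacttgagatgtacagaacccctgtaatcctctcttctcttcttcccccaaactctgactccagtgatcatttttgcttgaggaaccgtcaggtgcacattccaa

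Plek had 4.31, 4.32 and 4.61 FPKM in the young libraries, 5.61, 6.68 and 5.42 in the aged and 0.861, 1.17 and 1.09 in the NMN libraries. The 3 NMN libraries lay close together and far below the other 6, and the lowest unsupplemented value was a young one. Plek encodes the main protein kinase C substrate of platelets and white blood cells. Its mean was 5.16 ± 0.93 FPKM (SD, n = 6) without the supplement and 1.04 ± 0.16 (SD, n = 3) with it, 4.96-fold lower as a ratio of these means. The log2 difference was -1.60 (SE 0.14, limma adjusted p = 0.00431), with -1.75 against aged (adjusted p = 0.00234) and -1.44 against young (adjusted p = 0.0219). The adjusted p of the test against both groups was 0.0438. Aged and young Plek levels differed by 0.31 on the log2 scale (adjusted p = 0.356). The pooled call was kept in 8 of 9 fits that left out 1 library and was lost without NMN replicate 1 (adjusted p = 0.0569) and with the replicate number as a block (adjusted p = 0.0628, and 0.203 against both groups). The call against both groups was kept in 6 of 18 alternative fits. Ptprc, the defining leukocyte gene, was listed at 0 in 7 libraries and at 0.0157 and 0.0330 FPKM in young replicate 2 and NMN replicate 3. The summed blood and endothelium markers were at 8.61 to 10.95 FPKM in the NMN and 7.54 to 11.79 in the unsupplemented libraries, most of it Pecam1. Cd68, a macrophage gene of that list, was at 2.51, 0.681 and 1.97 FPKM in the NMN libraries and at 0.366 to 0.964 in the others, so it was not lower with the supplement. The part of blood cells in the level of Plek was not tested.

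Vamp3 encodes cellubrevin, a vesicle SNARE of recycling endosomes. It had 24.8, 28.5 and 29.6 FPKM in the young libraries, 7.13, 7.74 and 9.16 in the aged and 37.6, 30.9 and 35.6 in the NMN libraries. The NMN values lay above all others, but the gap to the highest young library was small next to that between the young and aged libraries. Vamp3 was called in the pooled comparison (log2 difference 1.13, SE 0.15, limma adjusted p = 0.0294). NMN exceeded aged by 1.98 (adjusted p = 0.00172) and young by 0.27 (adjusted p = 0.726). Vamp3 therefore failed the test against both groups (adjusted p = 1), and the aged libraries were the low ones. In a fit that gave the 6 unsupplemented libraries 1 common mean, so that the age difference entered the spread, Vamp3 was not called (adjusted p = 0.938). The pooled call was kept in 1 of 9 fits that left out a library, the one without aged replicate 2.

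**Figure D1:**
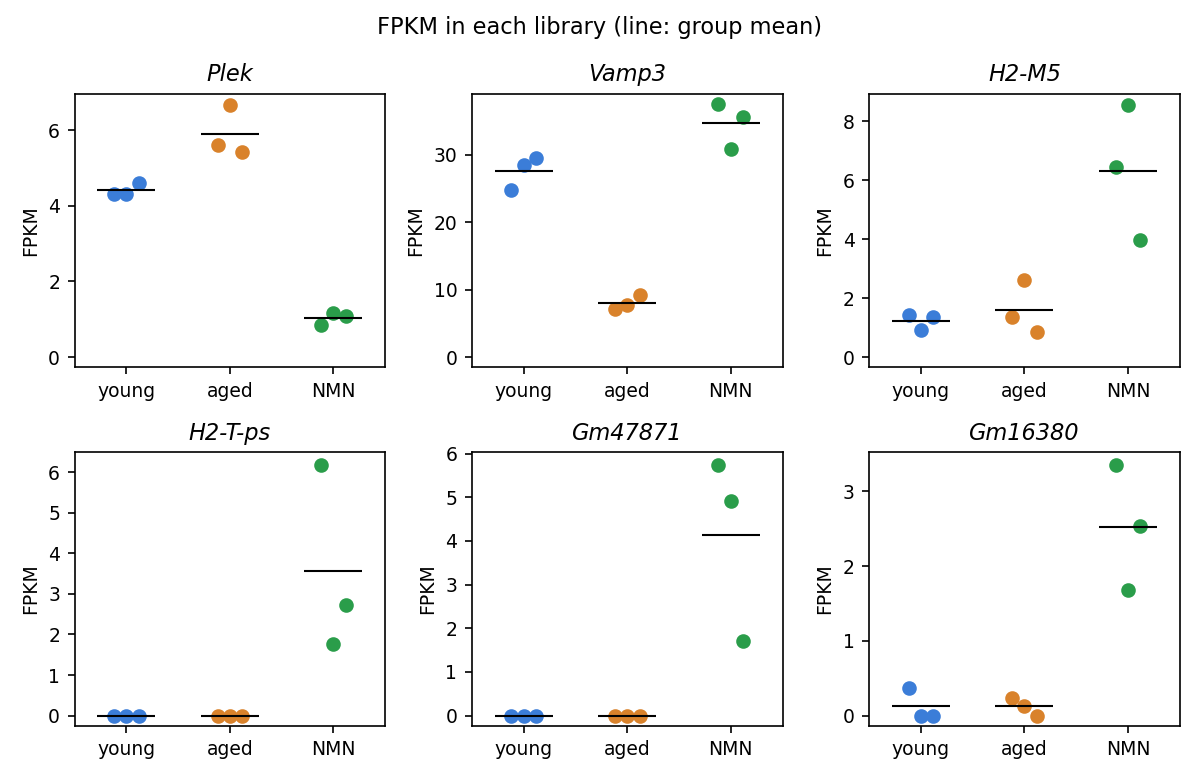
FPKM as deposited (vertical axis, starting near 0) of 6 genes in each library, by group, with a line at the group mean; every gene but H2-M5 was called against the pooled libraries. The 3 NMN points of Plek lie at 0.861 to 1.17 FPKM, under the lowest unsupplemented value of 4.31, and H2-T-ps, Gm47871 and Gm16380 are at or near 0 outside the NMN group.

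H2-T-ps, an unprocessed pseudogene of the major histocompatibility complex on chromosome 17, was listed at 0 in all 6 unsupplemented libraries. It had 6.18, 1.76 and 2.72 FPKM in the NMN libraries. Gm47871 was also listed at 0 in these 6 libraries and had 5.75, 4.92 and 1.71 FPKM in the NMN libraries. Gm16380 had 0.375, 0 and 0 FPKM in the young, 0.242, 0.129 and 0 in the aged and 3.36, 1.68 and 2.53 in the NMN libraries. All 3 transcripts were thus present in each NMN library at a low level, and differed about 2-fold or more between NMN libraries. Their log2 differences were 2.05 (SE 0.26), 2.24 (SE 0.27) and 1.62 (SE 0.20), each with a limma adjusted p of 0.0238. Each had an adjusted p of 0.0841 against both groups. These 3 genes passed the filter on low values only through the NMN libraries, as did 5 other genes, among them Serpinb1a, Socs3, Gm15429 and Hdac3. All 8 had to lie on the NMN side, so their direction is no finding. Leaving out any NMN library removed the 3 from the test. The calls also depended on the pseudocount: at 0.1 in place of 1, the adjusted p was 0.0998 for H2-T-ps, 0.0935 for Gm47871 and 0.246 for Gm16380.

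Of these 3 transcripts, 2 share sequence with other genes. Of the 50-base words of H2-T-ps, 29.4% occurred in transcripts of 19 other genes, most often H2-T23 (18.0%). Of those of Gm16380, 27.3% occurred in Siva1. Siva1 itself had 175, 123 and 109 FPKM in the young, 153, 302 and 129 in the aged and 244, 123 and 153 in the NMN libraries, so its groups overlapped. Gm16380 passed the filter only through the NMN libraries, so its own lack of overlap was set in advance and cannot be compared with Siva1. How the deposited values divide shared reads between such copies was not tested, and the levels of H2-T-ps and Gm16380 are uncertain. Gm47871 lies within the span of a second non-coding gene, Gm47872, on the same strand of chromosome 12. Gm47872 was listed at 0 in the same 6 libraries and had 3.30, 3.49 and 0.756 FPKM in the NMN libraries. It was not tested, and the NMN library with the least Gm47871 also had the least Gm47872.

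H2-T-ps lies in a stretch of chromosome 17 that also holds H2-M5 and Trim15, which the naming rule took from the uncalled genes. H2-M5, a class I histocompatibility gene of the same complex, had 1.42, 0.919 and 1.35 FPKM in the young, 1.37, 2.60 and 0.848 in the aged and 6.43, 8.55 and 3.96 in the NMN libraries. No NMN library of H2-M5 overlapped the others, and the means differed 4.45-fold, but it was not called (log2 difference 1.57, SE 0.26, limma adjusted p = 0.0973). Without aged replicate 2, its highest unsupplemented library, H2-M5 was called (limma adjusted p = 0.0441), but a fit that drops the nearest value is no support. Library quality weights also called H2-M5 (limma adjusted p = 0.0242, and 0.196 against both groups). These were the 2 calls in 19 fits. Trim15, a tripartite-motif gene between them, went the other way, with 10.6, 13.4 and 11.7 FPKM in the young, 11.0, 26.4 and 13.6 in the aged and 4.37, 3.47 and 9.99 in the NMN libraries (log2 difference -1.22, adjusted p = 0.374). From H2-T-ps to H2-M5 there are 12 tested genes, and in these 3 the NMN libraries lay outside the other 6 (2.86% over all tested genes). Both ends of the stretch were picked because their NMN libraries lay outside. H2-T-ps also passed the filter only through the NMN libraries, so this count is no finding about the stretch. ICR mice are outbred and this region varies between mice, and the labels give no genotype, so inherited differences and the supplement cannot be told apart here.

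The NMN libraries lay outside all 6 others in 262 of the 9168 genes (2.86%), above them in 130 (1.42%) and below in 132 (1.44%). The same count gave 745 genes (8.13%) for the aged and 692 (7.55%) for the young libraries against the other 6. Of the 262, 254 passed the filter other than through the NMN libraries alone. The 262 had a median absolute log2 difference of 0.50, against 0.17 over all tested genes. They were picked for lying apart from the other libraries, so a larger median was set in advance and is no finding. Of the 262, 29 differed at least 2-fold on the log2(FPKM + 1) scale (16 higher, 13 lower), a number not counted over all tested genes. By group means, 151 lay nearer the young and 109 nearer the aged level. In 215 of the 262 the young and aged libraries overlapped one another. Neither count was made over all tested genes, so neither can be read as a trait of the 262. The even split between higher and lower depended on the scaling: with the values as deposited it was 150 to 104, and with division by the library sum 174 to 95. Protein-coding genes made up 222 of the 262 (2.79% of those tested), pseudogenes 17 (3.15%) and long intergenic non-coding RNAs 15 (4.16%). Genes with a mean under 5 FPKM made up 150 of the 262 and 4390 of the 9168.

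**Figure D2:**
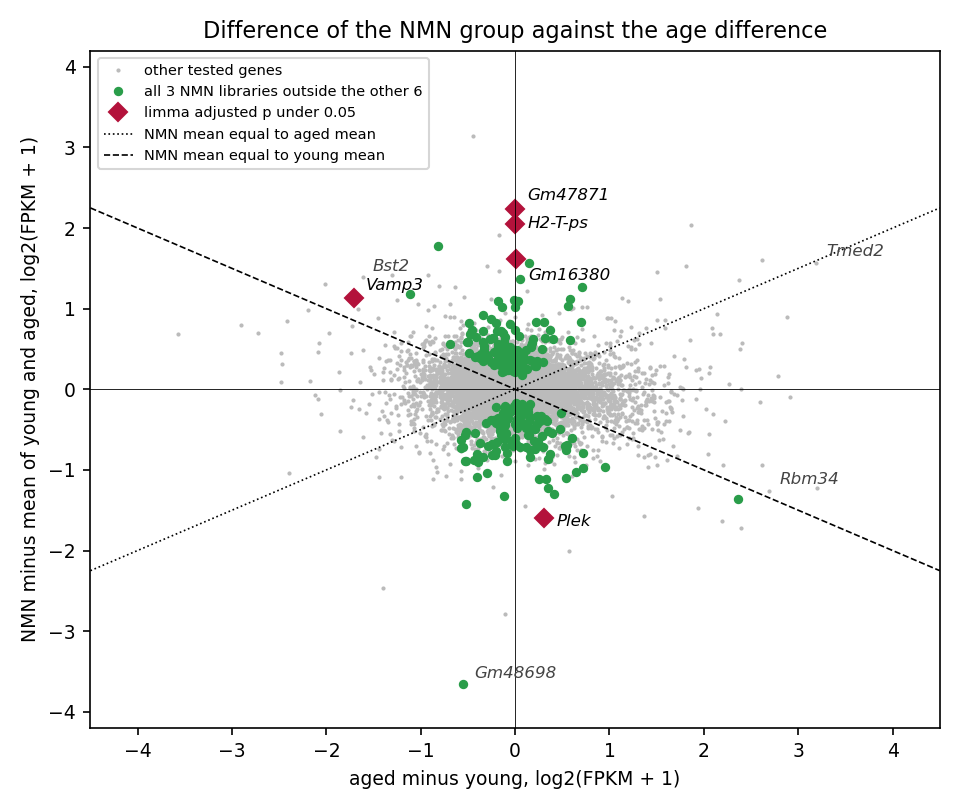
Each point is 1 of 9168 tested genes, placed by the aged minus young difference (horizontal axis) and by the NMN mean minus the mean of young and aged (vertical axis), both on the log2(FPKM + 1) scale; genes on the dashed line have NMN at the young level and on the dotted line at the aged level. Plek lies near an age difference of 0, whereas Vamp3 lies close to the dashed line. The 3 called non-coding genes had to lie near an age difference of 0, being at or near 0 FPKM in every unsupplemented library. Green points are the uncalled ones of the 262 genes whose NMN libraries lay outside the other 6.

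After the called genes, the naming rule took the genes of smallest p among the 262, and none of these passed the test. Among the higher ones, Nptx2, a secreted neuronal pentraxin, had 3.61, 2.97 and 5.02 FPKM in the young, 0.911, 1.11 and 1.87 in the aged and 6.99, 6.88 and 5.94 in the NMN libraries. It differed from aged by 1.74 (limma adjusted p = 0.0114) and from young by 0.62 (adjusted p = 0.488), and the pooled adjusted p was 0.0973. Like Vamp3, Nptx2 was lowest in the aged libraries.

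Atp23, a protease of the mitochondrial intermembrane space that takes part in assembling ATP synthase, had 7.58, 6.06 and 5.09 FPKM in the young, 3.56, 5.69 and 5.53 in the aged and 13.3, 11.3 and 10.04 in the NMN libraries. Its young and aged libraries overlapped, and the NMN mean was 2.07-fold that of the 6 others (log2 difference 0.92, SE 0.18, adjusted p = 0.226). Plxna1, a receptor for semaphorins, had 4.71, 2.08 and 2.15 FPKM in the young, 4.02, 4.94 and 5.42 in the aged and 12.3, 7.12 and 7.61 in the NMN libraries. Its log2 difference was 1.04 (adjusted p = 0.366). Pdzrn3, a ubiquitin ligase, and Cep170b, a protein linked to microtubules, were higher by 1.09 and 1.01 (adjusted p = 0.366 and 0.374). Ddx47, an RNA helicase of ribosomal RNA processing, Gtf2h4, a subunit of the transcription and repair factor TFIIH, and Nkiras2, a Ras-like regulator of NF-kappa-B, were higher by 0.83, 0.81 and 0.72, each under 4 FPKM in the NMN mean except Nkiras2 (4.16 ± 0.41 FPKM, SD, n = 3).

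Among the lower ones, Olfr1349, an olfactory receptor gene, had 6.98, 8.17 and 4.77 FPKM in the young, 10.5, 10.9 and 6.81 in the aged and 1.88, 3.5 and 2.64 in the NMN libraries. Its log2 difference was -1.30 (SE 0.23, limma adjusted p = 0.146). Gpd2, the mitochondrial glycerol-3-phosphate dehydrogenase of the shuttle that regenerates cytosolic NAD, had 4.81, 3.84 and 2.90 FPKM in the young, 2.001, 2.80 and 3.56 in the aged and 0.962, 1.14 and 1.84 in the NMN libraries. Its highest NMN library lay just under its lowest aged one, and the log2 difference of -0.90 did not pass (adjusted p = 0.366). Tfap2b, a transcription factor, had 7.96, 4.98 and 5.78 FPKM in the young, 5.27, 6.95 and 5.54 in the aged and 3.19, 2.96 and 2.41 in the NMN libraries (log2 difference -0.89, adjusted p = 0.214). Of 19 fits, only the one with library quality weights called Tfap2b (limma adjusted p = 0.0475, and 0.493 against both groups).

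Cela1, an elastase, Tspan12, a tetraspanin, and Cltrn, collectrin, a membrane protein that aids amino acid transport, had log2 differences of -1.12, -1.11 and -0.89 (adjusted p = 0.226, 0.374 and 0.366). Cltrn was the most abundant of these, at 20.8 ± 5.98 FPKM (SD, n = 6) without and 10.7 ± 2.004 (SD, n = 3) with the supplement. Trim23, a tripartite-motif ubiquitin ligase, and Nme7, a nucleoside diphosphate kinase relative found at the centrosome, had log2 differences of -0.71 and -0.62 (both adjusted p = 0.374). Nme7 was at 12.2 to 15.4 FPKM in the 6 unsupplemented libraries and at 7.59, 8.47 and 10.4 in the NMN libraries.

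**Figure D3:**
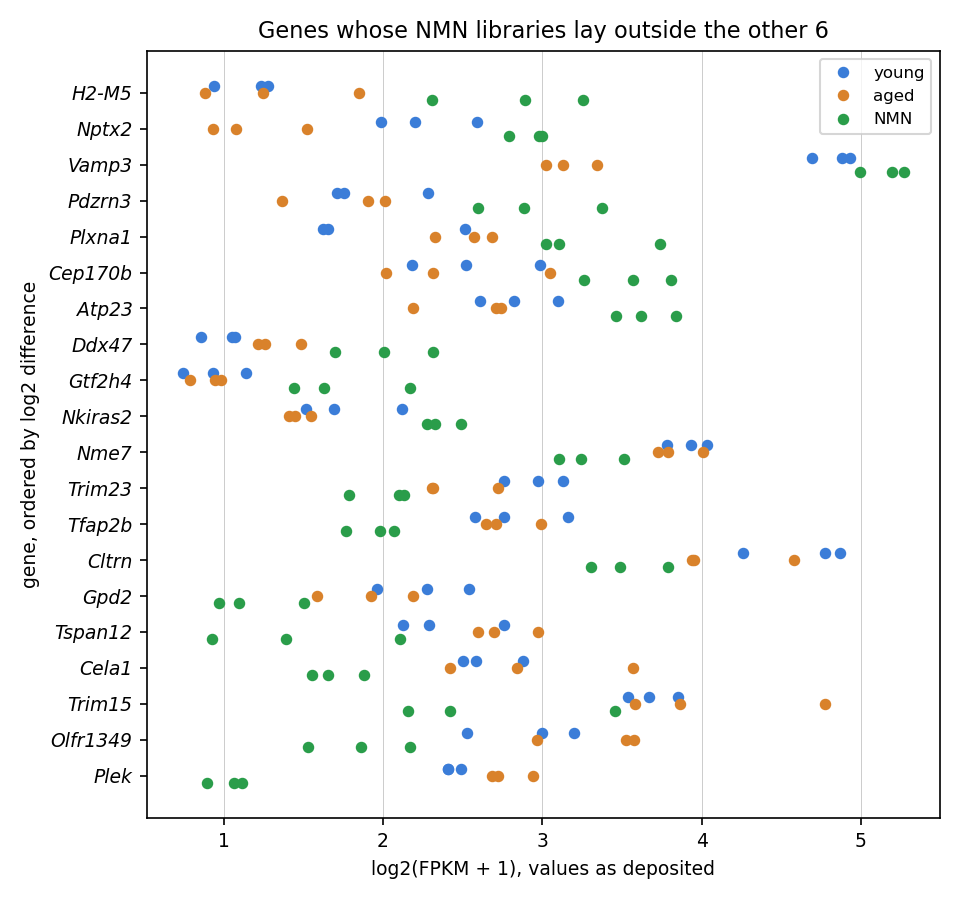
Values of 20 named genes in each library as log2(FPKM + 1) of the deposited values (horizontal axis), 1 row per gene, ordered by log2 difference, with young, aged and NMN libraries in different colours. In each row the 3 NMN points lie on 1 side of the other 6, and only Plek and Vamp3 were called. The Tspan12 row shows how narrow a gap this count accepts (3.31 FPKM in NMN replicate 2 against 3.37 in young replicate 2).

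Among the 262 genes, the differences of abundant transcripts were mostly small. Of the 262, 38 had a mean of at least 20 FPKM, 18 higher and 20 lower. These were 38 of 2043 tested at that level, next to 262 of 9168 over all tested genes. Of the 38, 2 differed at least 2-fold: Vamp3 and Gm48698. The genes of this paragraph other than Vamp3, Cnot11, Tubg1 and Ndc80 were chosen after their values were seen. Hmces, which protects abasic sites in single-stranded DNA, had 713, 734 and 648 FPKM in the young, 642, 483 and 590 in the aged and 863, 785 and 802 in the NMN libraries (log2 difference 0.35, limma adjusted p = 0.710). Prkab1, a regulatory subunit of the energy sensor AMPK, had 102, 123 and 128 FPKM in the young, 111, 77.6 and 127 in the aged and 138, 136 and 140 in the NMN libraries (0.30, adjusted p = 0.807). Cnot11, a subunit of the CCR4-NOT deadenylase that shortens poly(A) tails, had 36.5, 27.9 and 30.7 FPKM in the young, 26.3, 39.6 and 26.3 in the aged and 60.2, 48.1 and 42.8 in the NMN libraries (0.65, adjusted p = 0.383). These 3 genes were higher in every NMN library than in any other, by margins under the differences within the unsupplemented groups.

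Tubg1, the gamma-tubulin from which microtubules are nucleated, had 31.1, 33.5 and 37.6 FPKM in the young, 35.0, 32.2 and 42.0 in the aged and 46.7, 53.2 and 48.6 in the NMN libraries (log2 difference 0.46, limma adjusted p = 0.573). Ndc80, the kinetochore protein that binds spindle microtubules, had 64.9, 61.6 and 68.5 FPKM in the young, 91.8, 101 and 87.4 in the aged and 58.5, 55.5 and 54.4 in the NMN libraries (-0.49, adjusted p = 0.375). The NMN libraries of Ndc80 thus lay below the young ones, on the far side from the aged ones, but the difference from young was -0.25 (adjusted p = 0.696). Gm48698, a processed pseudogene, had 30.01, 33.9 and 37.9 FPKM in the young, 26.2, 28.8 and 17.2 in the aged and 0, 0 and 11.96 in the NMN libraries. It had the lowest log2 difference of the 262, at -3.66, and was not called (adjusted p = 0.191). It was called against both groups without NMN replicate 3, the library at 11.96 FPKM, a fit that leaves out the NMN library that differs and so is no support.

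Listing at 0 was rare as a mark of the group. Over all 22526 genes, 13 were listed at 0 in the 6 unsupplemented libraries and above 0 in all 3 NMN libraries. Of these, 2 reached 1 FPKM in every NMN library, H2-T-ps and Gm47871. In the reverse direction, 7 genes were listed at 0 in the 3 NMN libraries and above 0 in the other 6, and none had 1 FPKM in each of the 6. Depth, recovered from low values, was 16.28 to 19.25 M reads (M, mega) per library, at which 3 reads on a 2 kb transcript are worth 0.0779 to 0.0922 FPKM (counting error only).

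Another 4 comparison genes, listed with earlier results of these data known, were not called against the pooled libraries. Bst2, an interferon-induced membrane protein, had 18.4, 14.96 and 18.2 FPKM in the young, 3.26, 5.92 and 6.65 in the aged and 35.0, 13.8 and 40.6 in the NMN libraries. NMN replicates 1 and 3 exceeded all others and NMN replicate 2 lay under the young libraries (log2 difference 1.40, limma adjusted p = 0.340). Zfp961 and Kpna2, a zinc-finger gene and a nuclear import receptor, had NMN means of 39.96 ± 3.996 and 37.1 ± 2.80 FPKM (SD, n = 3), between those of the young and aged groups. Dppa1, a gene of pluripotent cells, had an NMN mean of 8.18 ± 1.60 FPKM next to 8.99 ± 0.97 in the young. Their pooled differences of 0.57, -0.50 and -0.73 were not called (adjusted p = 0.567, 0.461 and 0.374). Kpna2 shares 62.6% of its 50-base words with other genes, so its level is uncertain.

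Tmed2, a cargo receptor of the early secretory pathway chosen after its values were seen, lay at the aged level: 8.95, 11.3 and 12.5 FPKM in the young, 126, 78.8 and 133 in the aged and 113, 126 and 89.6 in the NMN libraries. The NMN and aged libraries of Tmed2 overlapped, and both were far above the young. The pooled comparison placed it next to the calls (log2 difference 1.57, limma adjusted p = 0.0664), although NMN differed from aged by -0.02 (adjusted p = 0.987).

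The genes that make and use NAD showed no called difference. Of 42 genes on this list, 17 were tested and 0 were called by limma (1 had an unadjusted p under 0.05, next to 7.08% of all tested genes). Of the 17 differences 13 were positive (52.0% over all tested genes), with a median of 0.06 against 0.01. Nampt, the enzyme that makes NMN, had 0.911, 1.36 and 1.66 FPKM in the young, 1.41, 0.924 and 0.772 in the aged and 0.470, 0.805 and 0.945 in the NMN libraries. The NMN and aged libraries of Nampt overlapped (pooled log2 difference -0.33, SE 0.19, adjusted p = 0.795). Nmnat1 and Nmnat2, which convert NMN to NAD in the nucleus and at the Golgi, differed by 0.29 and 0.01 (adjusted p = 0.803 and 0.999). Nmnat3, the mitochondrial form, and Nmrk1, the kinase that makes NMN from nicotinamide riboside, were not tested, with at most 0.233 and 0.144 FPKM in any library.

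Slc12a8, reported as an NMN transporter, had 0.485, 1.28 and 0.690 FPKM in the young, 0.727, 0.194 and 0.648 in the aged and 5.11, 0.229 and 5.402 in the NMN libraries. NMN replicates 1 and 3 were above every other library and NMN replicate 2 was below all of them but 1. Its pooled log2 difference was 1.12 (SE 0.46, limma adjusted p = 0.682). Of the 6 fits that left out a library and still tested it, 1 called it, the one without NMN replicate 2 (1.88, adjusted p = 0.0289), which leaves out the NMN library that differs and so is no support. Bst2 was likewise called in that fit alone of 9 (1.82, adjusted p = 0.0289). Slc25a51, the carrier that takes NAD into mitochondria, had 4.79, 4.79 and 5.08 FPKM in the NMN libraries, between the young values of 5.42 to 6.46 and the aged values of 2.89 to 4.38.

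The consumers of NAD were likewise uncalled. Sirt7, a nucleolar sirtuin, was the 1 gene of the list whose NMN libraries lay outside the other 6 (1 of 17, next to 2.86% over all tested genes, and only by the scaled values), with 4.47, 4.16 and 4.46 FPKM against 4.40 to 5.78 in the unsupplemented libraries (log2 difference -0.21, adjusted p = 0.821). Sirt4, a mitochondrial sirtuin, was the most abundant sirtuin per length, at 28.2 ± 4.42 FPKM (SD, n = 3) with and 27.3 ± 2.40 (SD, n = 6) without the supplement. Sirt1, a nuclear deacetylase, had 4.99, 3.08 and 4.99 FPKM in the NMN libraries and 1.99 to 6.004 in the others (0.35, adjusted p = 0.814). Sirt2, Sirt3 and Sirt5 were not tested. Parp1 and Parp2, which consume NAD at DNA breaks, differed by 0.11 and -0.15 (adjusted p = 0.957 and 0.945). Nadk, which phosphorylates NAD, was the most abundant member of the list by FPKM, with 87.0, 115 and 99.2 in the NMN libraries and 43.8 to 118 in the others.

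**Figure D4:**
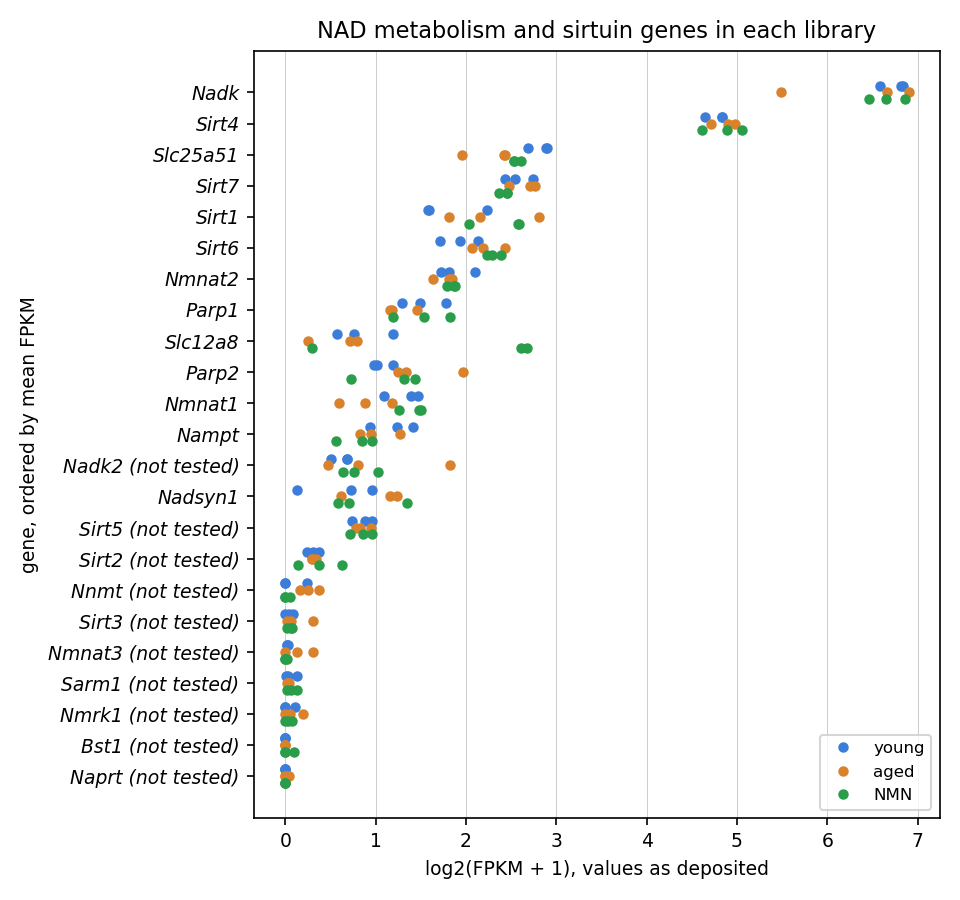
Values of NAD metabolism and sirtuin genes in each library as log2(FPKM + 1) of the deposited values (horizontal axis), 1 row per gene, ordered by mean FPKM, with the groups in different colours; genes below the filter are marked as not tested. In no row do the 3 NMN points lie wholly above or wholly below the other 6; in the Slc25a51 row they fall between the young and the aged ones, and in the Slc12a8 row 2 NMN libraries stand at 5.11 and 5.402 FPKM and the other at 0.229.

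Over 32 lists of pathway genes, Vamp3 was the only member called. The median differences of the lists ran from -0.18 (early embryonic transcripts, 4 tested) to 0.29 (immediate early and stress genes, 12 tested), around 0.01 for all tested genes. Of the 12 immediate early genes, 11 were higher in the NMN mean (52.0% over all tested genes) and 2 had an unadjusted p under 0.05 (7.08% over all tested genes), with 0 calls by limma. These were Gadd45b, a growth arrest gene, and Klf6, a transcription factor. Gadd45b had 0.414, 0.941 and 1.11 FPKM in the young, 3.56, 2.28 and 2.27 in the aged and 3.52, 2.56 and 2.59 in the NMN libraries, so NMN lay at the aged level (pooled adjusted p = 0.588). Klf6 had 1.51, 0.694 and 2.74 FPKM in the young, 1.89, 2.59 and 1.71 in the aged and 3.29, 2.68 and 4.68 in the NMN libraries (adjusted p = 0.600).

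Genes of chromatin and DNA methylation had a median difference of 0.19 over 57 tested genes, and 46 of the 57 (80.7%) were higher in the NMN mean, where 52.0% of all tested genes were. None was called by limma, and 4 of the 57 had an unadjusted p under 0.05, a share near the 7.08% of all tested genes. The 4 were Hdac3, a histone deacetylase, Kdm5c, a histone demethylase, Crebbp, a histone acetyltransferase, and Arid1a, a remodelling subunit, and Hdac3 had passed the filter only through the NMN libraries. Crebbp had 34.4, 24.0 and 27.2 FPKM in the young, 23.2, 28.7 and 25.3 in the aged and 36.8, 35.1 and 33.5 in the NMN libraries (log2 difference 0.35, limma adjusted p = 0.693). Relative to each gene's mean over the 9 libraries, the list's median was 0.22, 0.14 and 0.05 in the NMN libraries. It was 0.16 in young replicate 1 and 0.09 in aged replicate 2, and between -0.23 and -0.14 in the remaining 4, so the groups overlapped. Transcript length moved with the comparison too: 58.8% of genes in the longest of 3 length classes and 46.7% in the shortest were higher in the NMN mean, and the median chromatin gene was 4373 bases long against 3074 over all tested genes. The part of length in this list's median was not tested.

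The mitochondrial and ribosomal lists had median differences of opposite sign against the young and the aged groups. The 10 tested mRNAs of the mitochondrial genome had a median of 0.42 for NMN minus aged and -0.33 for NMN minus young, and 0.00 against both pooled. The nuclear genes of the respiratory chain (45 tested) ran the other way, at -0.30 and 0.27, as did the cytosolic ribosomal proteins (37 tested), at -0.33 and 0.28. The libraries did not fully separate in this order. Relative to each gene's mean, the mitochondrial mRNAs had medians of 0.04, 0.08 and -0.08 in the NMN libraries, below the young ones at 0.419, 0.365 and 0.532. Aged replicates 1 and 3, at -0.613 and -0.783, lay below the NMN libraries, and aged replicate 2, at 0.20, lay above them. The ribosomal proteins were at 0.42, -0.42 and -0.02 in the NMN libraries, and of the other 6 only aged replicate 2, at 1.04, and young replicate 3, at -0.48, lay outside that range. The respiratory chain genes were at 0.21, -0.16 and -0.03 in the NMN libraries and at 0.69 in aged replicate 2.

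**Figure D5:**
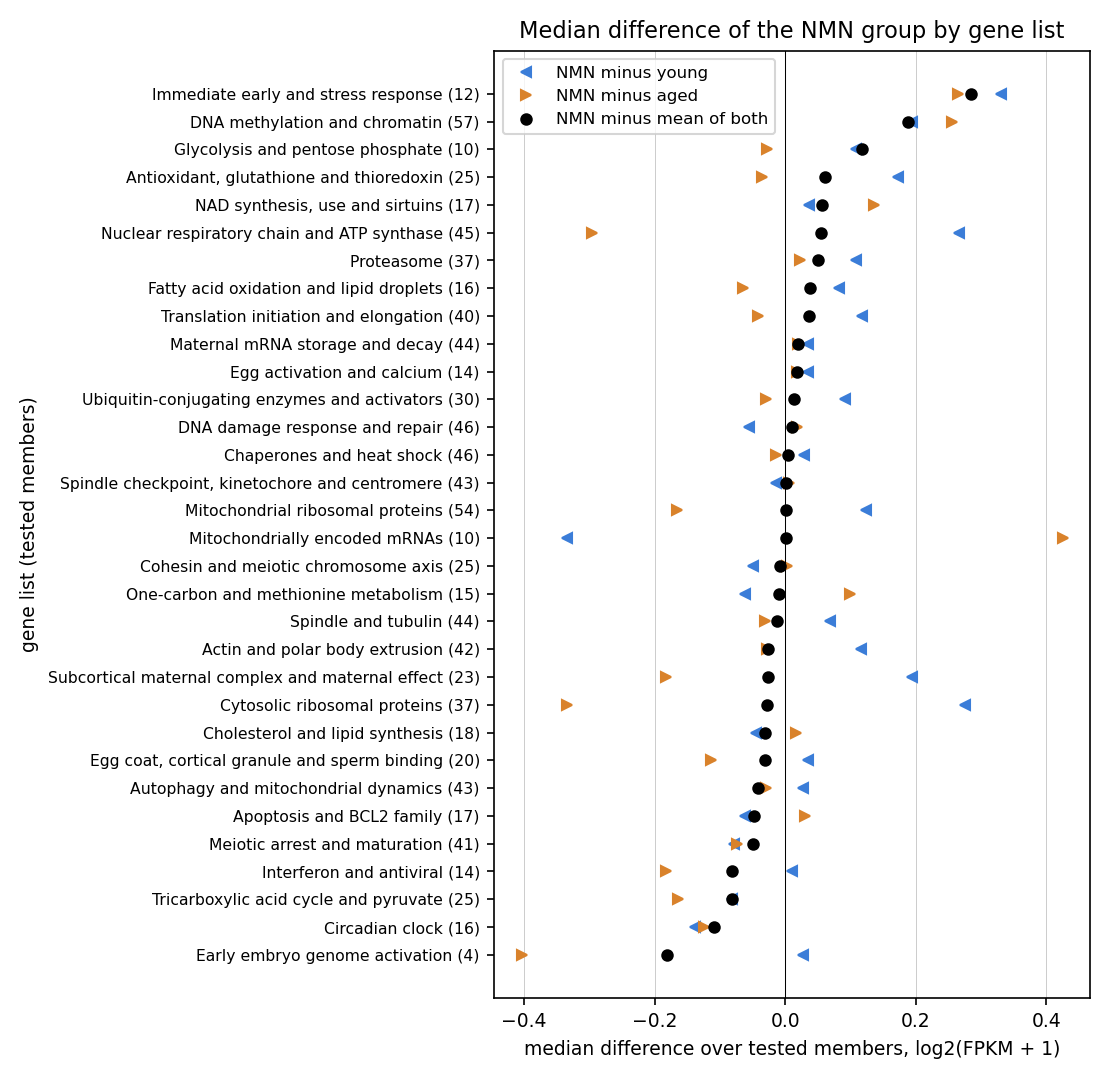
Median log2 difference over the tested members (number in brackets) of 32 gene lists (horizontal axis): NMN minus the mean of both groups as black circles, NMN minus young and NMN minus aged as triangles. Only the immediate early list and the chromatin list stand to the right of 0.15 in all 3 medians, and the mitochondrial mRNA and ribosomal lists show triangles on opposite sides of 0.

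The libraries held oocyte RNA, with 12 oocyte markers summing to 11980 to 13700 FPKM in the NMN and 10120 to 14320 in the unsupplemented libraries. Cumulus and granulosa markers summed to 4.88 to 7.395 FPKM in the NMN, 7.66 to 9.23 in the young and 5.04 to 27.0 in the aged libraries, and the 27.0 belonged to aged replicate 2. Ptx3, Inha, Fst and Tnfaip6 of that list were listed at 0 in all libraries but aged replicate 2. Cyp19a1, the largest member in every other library, was lowest in aged replicate 2. It had 5.396, 6.205 and 5.272 FPKM in the young, 3.255, 3.03 and 3.664 in the aged and 3.05, 3.94 and 4.159 in the NMN libraries. Kitl, at 0.759 FPKM in aged replicate 2, was not raised there either. The part of cumulus cells in these sums was not tested. Of 38 summed lists, including markers of theca, blood, oviduct and sperm, 0 had p under 0.05 in the two-sided exact permutation test of 3 against 6 libraries, which can reach 0.0238. The smallest p was 0.0714, for the cumulus list and for meiotic arrest and maturation genes, whose sum was 5901, 5738 and 5888 FPKM in the NMN and 5849 to 7247 in the other libraries. On the first principal component (41.0% of the variance) aged replicate 2 stood at 56.8 and NMN replicate 1 next at 22.7. Leaving out aged replicate 2 kept all 5 pooled calls and the call of Plek against both groups (adjusted p = 0.0435).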

How the data were processed

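Smart-seq2 RNA libraries of 9 samples were used, grouped by their titles, and the columns were matched by the sample descriptions. The deposited table is named a count matrix, but the values the authors deposited are FPKM, which are fractional. Per the submitters' processing notes, Bowtie2 2.2.5, RSEM and the mouse build mm9 were used; the annotation is not given in the sources used here. GENCODE M21, on a later build, gave names for 22487 identifiers, transcript sequences and gene order, so no coordinates are printed.

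Libraries were scaled by trimmed means of gene ratios, trimming 30% of ratios and 5% of levels. Of the genes, those reaching 1 FPKM as deposited in 3 or more libraries were kept. Their log2(FPKM + 1) was fitted with limma 3.58.1 in R 4.3.3, with 3 group means in 1 fit, a variance trend and robust moderation. The pooled contrast was the NMN mean minus the mean of the young and aged means. The test against both groups took the larger of the 2 p-values where both differences had the same sign, adjusted over all tested genes. Values per library and group are as deposited; non-overlap was judged on scaled values. On simulated data of 8908 genes the pooled test recovered 53.6% of differences of 1 and 90.6% of differences of 2 on the log2 scale, with 3.47% false calls, and the test against both groups recovered 24.7% and 83.3%, with 0.952% false. The simulated libraries had independent noise, no age difference and no shared library effects. They held enough changed genes for 144 pooled calls, against 5 in the data. These shares are therefore not the power or error of the tests on the data.

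Depth was recovered from low values of 2659 single-transcript genes: 96.2 to 97.6% of values below 20 reads were whole within 0.02 reads. List sums were compared by exact permutation. Genes were named by a rule: called genes whose NMN libraries lay outside the other 6, filled to 10 per direction by smallest p, with predicted genes and pseudogenes left out, then the leading members of each list, NAD genes and 6 comparison genes. The members and lists were chosen with earlier results of these data known. Alternatives changed the design, block, weights, moderation, pseudocount, filter and scaling, or left out 1 library each. The values of 1 gene that passed the filter only through the NMN libraries are not reported here.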

Additional observations from a re-analysis of the deposited data

How the results depend on the processing

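The pooled count of 5 became 0 with the replicate number as a block (598 genes at an unadjusted limma p under 0.05), 12 with library quality weights, 1 with a pseudocount of 0.1, 1 without a filter and 0 with a minimum of 10 FPKM (207 unadjusted, and Plek not tested). Leaving out a library gave 0 to 8: 2, 1 and 1 without young replicate 1, 2 and 3, 1, 7 and 1 without aged replicate 1, 2 and 3, and 0 (413 unadjusted), 8 and 3 without NMN replicate 1, 2 and 3. Of these 8 and 3 genes, only 1 each time was among the main 5, namely Plek. The count of 1 against both groups became 0 with the replicate block (119 unadjusted), without a filter (285), with a minimum of 10 FPKM (36), with values as deposited (141) and with library-sum scaling (139), and 3 with quality weights. It was 0 to 2 when a library was left out, and was kept at 1 only without aged replicate 2. The 2, found without NMN replicate 3, were Gm48698 and Rps2-ps10 and not Plek. The count of 262 became 447 without a filter and 77 at 10 FPKM, and 307 to 715 when a library was left out, since fewer libraries are easier to separate. The number of list sums with permutation p under 0.05 went from 0 to 1 with scaled values (meiotic arrest and maturation) and was 0 to 1 when a library was left out; without an NMN library the test cannot reach 0.05 and was not run. The cause of these shifts was otherwise not tested.

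The labels tie replicate numbers to no animal or day. Each gene's mean over its own group was first subtracted from the log2 values. What remained in same-numbered libraries correlated at 0.496, 0.12 and 0.143 for NMN and young. The same correlation was -0.371, -0.358 and 0.201 for NMN and aged, and -0.338, -0.267 and 0.313 for aged and young. The numbers were therefore not taken as pairs across all groups. Under the replicate block the adjusted p was 0.0628 for Plek and Gm16380, 0.0778 for Gm47871, 0.0853 for H2-T-ps and 0.178 for Vamp3.

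For named genes, 2451 of 2519 values kept direction and side of the threshold, 38 lost and 5 gained a call, and 25, all of uncalled genes, changed sign. With library quality weights, Nmnat2, Nadk and Parp1 became -0.0103, -0.159 and -0.0387. With median-of-ratios factors Nmnat2 became -0.00171, and Slc25a51 became 0.0111 with values as deposited and 0.0265 with library-sum scaling. When a library was left out, the range was -0.161 to 0.22 for Nadk, -0.0661 to 0.205 for Nadsyn1, -0.032 to 0.0621 for Nmnat2, -0.0646 to 0.281 for Parp1, -0.273 to 0.0495 for Parp2, -0.0751 to 0.0959 for Sirt4, -0.0724 to 0.0296 for Slc25a51, -0.767 to 0.155 for Tcstv3 and -0.363 to 0.00139 for mt-Cytb. The read depth gives a floor of 0.0779 to 0.0922 FPKM for a 2 kb transcript.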

Other observations

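The lists of the clock, apoptosis and antioxidant genes held differences in both directions, and none of their genes was called by limma. Arntl2, a clock transcription factor, was at 0.142, 0.227 and 0.137 FPKM in the aged, 3.66, 4.60 and 4.52 in the young and 3.27, 6.05 and 3.07 in the NMN libraries, so the NMN values overlapped the young ones (pooled log2 difference 0.98, adjusted p = 0.321). Ciart, a repressor of the clock, was at 9.999, 15.2 and 10.2 FPKM in the young, 19.1, 10.8 and 16.0 in the aged and 8.44, 5.82 and 9.55 in the NMN libraries, below all 6 others (-0.71, adjusted p = 0.567). Apaf1, the scaffold of the apoptosome, was at 3.04, 1.84 and 2.93 FPKM in the NMN libraries and at 3.74 to 5.88 in the others (-0.64, adjusted p = 0.397). Sod2, the superoxide dismutase of the mitochondrial matrix, was at 17.4, 15.7 and 17.7 FPKM in the NMN libraries and at 12.3 to 15.2 in the others (0.25, adjusted p = 0.775).

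Mrpl44, a protein of the mitochondrial ribosome, was at 43.7, 48.7 and 42.6 FPKM in the NMN libraries and at 22.7 to 38.1 in the others (0.39, adjusted p = 0.736). Kif5b, a kinesin, was at 29.7, 39.9 and 16.7 FPKM in the NMN, 13.6 to 14.0 in the young and 14.7 to 20.6 in the aged libraries (0.75, adjusted p = 0.556). Of the genes passing the filter only through the NMN libraries, Socs3, a feedback inhibitor of cytokine signalling, was at 1.75, 1.09 and 1.67 FPKM in the NMN and at 0 to 0.835 in the other libraries (0.74, adjusted p = 0.375). The filter set the direction and lack of overlap of Socs3 in advance, so they are no finding.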
